A study of Homo sapiens with 4 samples.

Results

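RNA made from the light strand of the mitochondrial genome was examined in ADAR eCLIP data from K562 cells. It comprises every mitochondrial cluster or peak on the minus strand, which is the orientation of ND6, TRNY and the other genes of that strand. There were 34 such regions of 691726 in 3 deposited lists, namely 13 of 534161 clusters in replicate 1, 12 of 155848 in replicate 2 and 9 of 1717 peaks in the reproducible list, which combines both replicates. They lay in 4 genes, ND6, TRNY, TRNC and TRNP, and no minus-strand cluster lay outside a gene of that strand.

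The series used K562, an established human chronic myeloid leukaemia line, with no treatment. Enhanced crosslinking and immunoprecipitation (eCLIP) recovers RNA fragments crosslinked to a protein, and the immunoprecipitated (IP) library is compared with an input library from the same lysate that did not pass through the antibody. The 2 IP libraries used an ADAR1 antibody, each IP library has an input library of its own number, and the cells were crosslinked at 254 nm and 400 mJ/cm2. Separate cultures are not named in the labels, so the spread between replicates 1 and 2 may be technical. The erythroid markers HBG1, HBG2 and TFRC held clusters in both replicates. Of 4 hepatocyte markers (ALB, APOA1, TF and SERPINA1), 1 held a single cluster, in replicate 1. IP depth was 3.33 times input depth in replicate 1 and 0.553 times in replicate 2.

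The mitochondrial genome is transcribed from both strands into long precursors that are cut into messenger, ribosomal and transfer RNAs. The light-strand precursor carries a single protein-coding gene, ND6, a membrane subunit of respiratory complex I, and 8 tRNA genes. Most of its remaining length is antisense to heavy-strand genes and is degraded by the SUV3 helicase with polynucleotide phosphorylase. Light-strand RNA that escapes decay can pair with heavy-strand RNA, and such pairs are a known source of mitochondrial double-stranded RNA. ADAR, the protein captured here, binds double-stranded RNA and converts its adenosines to inosines.

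All fold values are the authors' log2 of IP over input for each cluster. Clusters with a log2 fold of 3 or more and an authors' −log10 p of 3 or more are called enriched. Every one of the 13 minus-strand clusters of replicate 1 was enriched, as were 10 of the 12 of replicate 2, against 1.39% and 12.8% of all clusters in those lists. Their median log2 fold was 3.68 in replicate 1 and 3.88 in replicate 2, against 0.07 and 1.85 over all clusters. The 2 clusters not enriched, both in replicate 2, lay in TRNC and TRNP. With log2 4 as the threshold 3 of the 13 and 5 of the 12 were called, against 0.468% and 7.09% of all clusters, and with log2 2 all 13 and 11 of the 12 were, against 2.45% and 16.9%. Raising the −log10 p threshold to 5 left all 13 and 10 of the 12, against 0.885% and 8.21%. It could not change these counts, since the lowest −log10 p of an enriched minus-strand cluster was 87.6 in replicate 1 and 42.5 in replicate 2. No test was made over clusters, since neighbouring clusters can share reads and are not replicates.

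**Figure D1:**
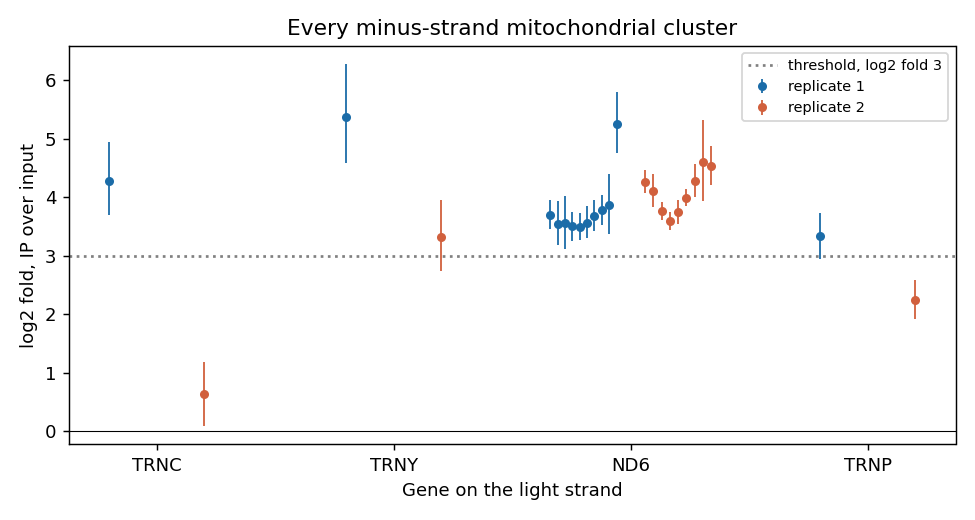
The log2 fold of IP over input (vertical axis) for each of the 13 minus-strand mitochondrial clusters of replicate 1 and the 12 of replicate 2, by gene; within ND6 the points run from the 3′ side of the gene to the 5′ side. Bars are exact 95% binomial intervals, which cover counting error only; all ND6 points lie above log2 3, while the 3 tRNA points of replicate 2 lie below those of replicate 1.

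ND6 spans positions 14149 to 14673 of the GRCh38 mitochondrial chromosome, 525 bases, and holds no plus-strand cluster in any list. It carried 10 clusters in replicate 1 and 9 in replicate 2, all enriched. The median log2 fold of these clusters was 3.62 in replicate 1, with a range of 3.50 to 5.26, and 4.11 in replicate 2, with a range of 3.60 to 4.60. Clusters covered 201 bases (38.3% of the gene) in replicate 1 and 214 bases (40.8%) in replicate 2, and 180 bases were covered in both. Counted along the RNA from the 5′ end of the gene, the covered part ran from base 167 to base 417 in replicate 1 and from base 176 to base 418 in replicate 2. The ends of the gene held no cluster in either replicate. The nuclear genome holds 36 annotated ND6 pseudogenes, and no source used here says how the authors treated reads that match several copies.

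Within that part the clusters formed a short block towards the 5′ side and a longer block of touching clusters behind it. In replicate 1 the blocks were 14465 to 14507, 1 cluster with log2 fold 5.26, and 14257 to 14414, 9 clusters between 3.50 and 3.87. In replicate 2 they were 14477 to 14498, 1 cluster with log2 fold 4.54, and 14256 to 14447, 8 clusters between 3.60 and 4.60. The 5′ block of replicate 1 thus stood above all other ND6 clusters of that replicate. In replicate 2 the highest value, 4.60, was at 14431 to 14447, next to the gap. Its counting interval, 3.94 to 5.33, overlapped that of the 5′ block, 4.22 to 4.89. The stretch 14431 to 14447 had no cluster in replicate 1 and no peak in the reproducible list. Among the reproducible ND6 intervals described below, the 5′ one was highest in both replicates.

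**Figure D2:**
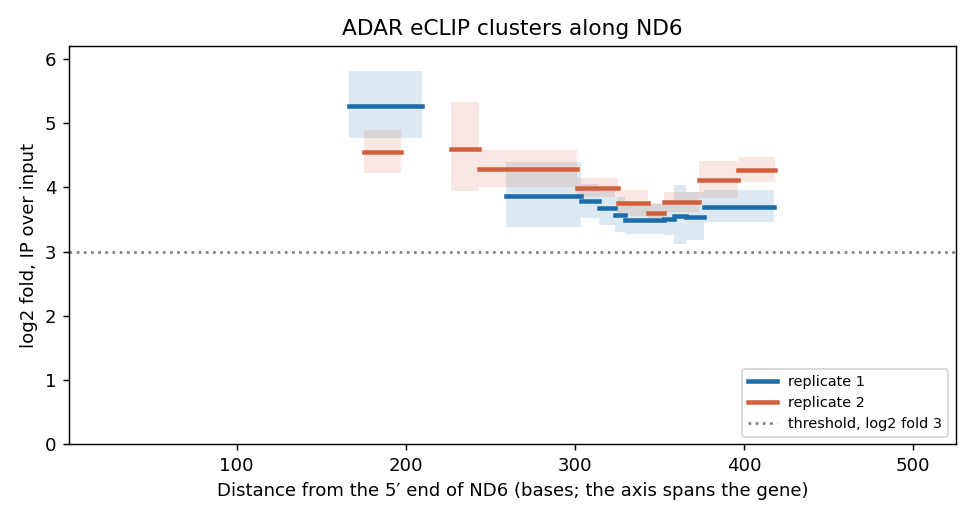
The log2 fold of IP over input (vertical axis) of each ND6 cluster along the gene in bases from its 5′ end (horizontal axis, whole gene), with 1 line per cluster and shaded exact 95% binomial intervals for counting error. In both replicates the values are lowest at the clusters that start at base 330 (replicate 1, 3.50) and base 344 (replicate 2, 3.60), counted from the 5′ end, and higher on both sides. In replicate 1 the shaded interval of the lowest cluster overlaps those of the touching clusters on both sides.

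The reproducible list made it possible to set both replicates side by side on identical intervals. Each of its mitochondrial minus-strand intervals was identical to a cluster of 1 replicate, and its combined log2 fold was the mean of the 2 replicates' values on that interval, so the value of the other replicate could be recovered. Across the 8 ND6 intervals the combined log2 fold ranged from 3.55 to 4.91, with a median of 3.91 against 4.62 over all 1717 peaks. All but the 5′ interval lay below that median in fold. By −log10 p the ND6 peaks were at the top of the list, since 19 peaks reached the limit of 400 and 8 of those were the ND6 peaks. A further 6 were on the mitochondrial plus strand, so this was not particular to ND6. The 8 ND6 peaks are 1 site of 7 touching intervals and 1 separate interval.

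On the 5′ interval, 14465 to 14507, the log2 fold was 5.26 in replicate 1 and 4.55 in replicate 2. On 14373 to 14430, the widest interval with 58 bases, it was 3.87 and 4.29. The intervals 14349 to 14372 (3.80 and 3.995) and 14331 to 14348 (3.52 and 3.75) came next. Replicate 2 was thus higher from the second of these intervals on, and both replicates declined along the RNA to this point. The lowest values of both replicates were at 14322 to 14330, with 3.51 in replicate 1 and 3.60 in replicate 2. Beyond it the values were 3.54 and 3.77 at 14301 to 14321, 3.73 and 4.11 at 14278 to 14300, and 3.68 and 4.27 at 14256 to 14277. Both replicates were higher again at this 3′ side than at the lowest interval. In replicate 1, at minimum reads, the counting intervals at 14322 to 14330 (3.26 to 3.77) and 14256 to 14277 (3.41 to 3.97) overlapped, so a rise there is not settled. In replicate 2 they were 3.45 to 3.75 and 4.08 to 4.47 and did not overlap.

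Replicate 2 was higher on 7 of the 8 intervals, with a median difference of 0.23 on the log2 scale. The exception was the 5′ interval, where the difference, replicate 2 minus replicate 1, was −0.71. On 14256 to 14277 the counting intervals of the replicates, 3.41 to 3.97 and 4.08 to 4.47, did not overlap. On the other intervals they did, but all 8 rest on minimum numbers of reads, where counting intervals are widest. Overlap there does not show equal values, and the share without overlap over all reproducible peaks was not computed. Across the 8 intervals Pearson's r between the replicates was 0.77 and Spearman's rho was 0.90, and across the 7 without the 5′ interval r was 0.84 and rho 0.86. This describes the shape along 1 RNA, since all intervals share the libraries and touching ones can share reads.

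**Figure D3:**
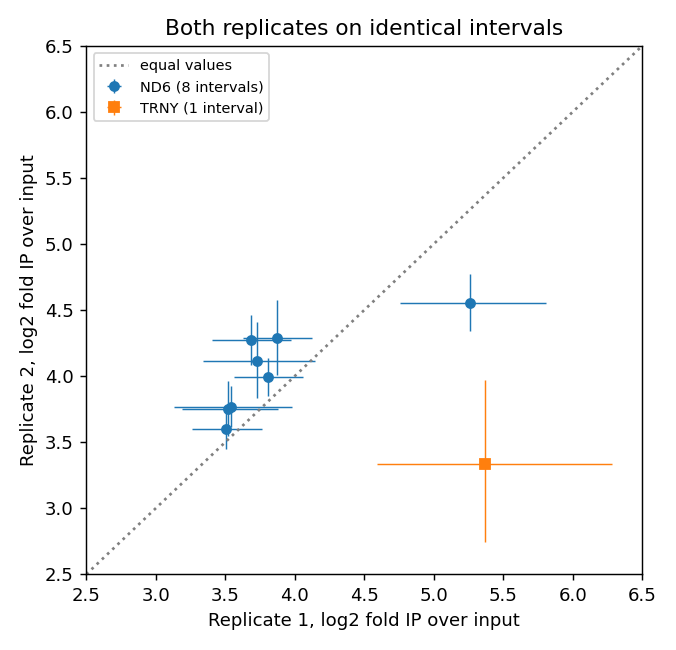
The log2 fold of IP over input in replicate 1 (horizontal axis) and replicate 2 (vertical axis) on the 8 ND6 intervals and the 1 TRNY interval of the reproducible list, with exact 95% binomial intervals for counting error; the dotted line marks equal values. The 7 ND6 intervals outside the 5′ block lie above the line, and the 5′ interval and TRNY lie below it.

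The number of reads behind the ND6 values was large. The folds are ratios of whole reads, so each gives the IP and input reads in lowest terms, and the reads are those numbers or a multiple of them. At 14465 to 14507 replicate 1 had at least 4077 IP reads over 32 input reads, and replicate 2 had at least 2429 over 187 on the same interval. The interval from 14349 to 14372 had at least 6460 IP reads over 139 in replicate 1 and 3908 over 443 in replicate 2. Clusters as narrow as 6 bases, such as 14316 to 14321 in replicate 1, still had at least 5209 IP reads. The ND6 cluster with the smallest minimum, 14431 to 14447 in replicate 2, had at least 268 IP reads over 20 input reads.

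TRNY encodes the mitochondrial tRNA for tyrosine and lies at 5826 to 5891, 66 bases. It held 1 cluster in each replicate and 1 reproducible peak, and both clusters were enriched. The cluster of replicate 1, at 5828 to 5858, had log2 fold 5.37, the highest of all minus-strand clusters, from at least 1788 IP reads over 13 input reads. In replicate 2 the cluster at 5830 to 5858 had log2 fold 3.32, from 155 IP reads over 28 input reads. Both clusters began at base 34 from the 5′ end of the tRNA and lay in its 3′ part.

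On the identical 31-base interval of the reproducible list TRNY had log2 fold 5.37 in replicate 1 and 3.33 in replicate 2, with a combined value of 4.35. The linear folds differed 4.10 times, and the counting intervals, 4.59 to 6.28 and 2.75 to 3.97, did not overlap. The interval of replicate 2 reached below log2 3. The authors' −log10 p for this peak, 42.9, was the only one of the 9 below the limit of 400. TRNY was therefore enriched in both replicates, with a size that differed between them by more than counting error.

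TRNC, the tRNA for cysteine, adjoins TRNY at 5761 to 5826 and is carried on the same precursor. Its cluster in replicate 1, at 5787 to 5825, had log2 fold 4.29 from 1494 IP reads over 23 input reads, with a counting interval of 3.70 to 4.95. The cluster of replicate 2, at 5802 to 5816, had log2 fold 0.64 from 55 over 64, with an interval of 0.09 to 1.18 and a −log10 p of 1.69. The linear folds differed 12.6 times, although the clusters shared only 15 bases. TRNC was thus called in 1 replicate and was not in the reproducible list. The mean of its 2 log2 folds was 2.46. These come from clusters that are not identical intervals, so the mean is not comparable with the combined values of that list.

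TRNP, the tRNA for proline, lies at 15956 to 16023, beside the control region. Its cluster had log2 fold 3.33 in replicate 1, at 15962 to 15997, and 2.25 in replicate 2, at 15963 to 15995, where it came from 268 IP reads over 102 input reads. The counting intervals were 2.95 to 3.74 and 1.91 to 2.59. In replicate 1 the value sat just inside the threshold of log2 3 and its interval crossed it. TRNP had no reproducible peak, and the mean of its 2 log2 folds, from clusters that are not identical intervals, was 2.79. In replicate 2 its −log10 p was 48.4, so the cluster missed the call by its fold alone.

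In all 3 light-strand tRNAs with a cluster, the log2 fold was lower in replicate 2 than in replicate 1. The difference, replicate 2 minus replicate 1, was −3.65 in TRNC, −2.05 in TRNY and −1.09 in TRNP between their own clusters, which are not identical intervals. Most ND6 intervals differed in the opposite direction. Most heavy-strand tRNA genes with clusters in both replicates also had a lower median log2 fold in replicate 2. In replicates 1 and 2 it was 6.36 and 3.35 in TRNR, 4.05 and 2.32 in TRNI, and 3.45 and 1.80 in TRNH. It was 3.74 and 2.44 in TRNT and 2.16 and 1.96 in TRNL2, but higher in replicate 2 in TRNF, 4.19 and 4.33. Intervals were not matched between replicates here either. The TRNR value of replicate 2 is 1 cluster over 10 bases, against 2 clusters over 56 bases in replicate 1. The reproducible peak in TRNR, over 45 bases, had a combined log2 fold of 5.65, so 6.36 and 3.35 do not compare like stretches. The TRNI clusters covered 38 bases in each replicate. The lower values were thus not particular to light-strand tRNAs. By fold the light-strand genes ranked TRNY, TRNC, ND6, TRNP in replicate 1 and ND6, TRNY, TRNP, TRNC in replicate 2. The median was taken for ND6. In replicate 1, at the minimum reads, the counting interval of TRNC overlapped those of TRNY and of all 10 ND6 clusters. The interval of TRNP, up to 3.74, overlapped those of the ND6 clusters except the 5′ one, and not that of TRNY. In replicate 2 the interval of TRNY, 2.74 to 3.96, overlapped several ND6 clusters and not TRNP, and those of TRNP and TRNC did not overlap.

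The other 5 of the 9 light-strand genes, TRNQ, TRNA, TRNN, TRNS1 and TRNE, held no minus-strand cluster in any list. These encode the tRNAs for glutamine, alanine, asparagine, one of the serine acceptors and glutamate. TRNN is next to TRNC in the same group of tRNA genes, and TRNE adjoins the 5′ end of ND6 at 14674 to 14742. The lists hold only regions that were called as clusters, so a gene without one has no value here, and no upper limit can be set. Along the long stretches of the light strand that are antisense to heavy-strand genes no cluster was listed either.

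The opposite strand was compared at the same places. None of the 13 minus-strand clusters of replicate 1 or the 12 of replicate 2 was overlapped by a plus-strand cluster of the same replicate. Distances were measured from cluster to cluster, not from the ends of genes. The shortest from an ND6 cluster to a plus-strand cluster was 277 bases in replicate 1 and 292 bases in replicate 2. From the TRNY clusters the distances were 155 and 148 bases. From the TRNP clusters, where the heavy-strand gene TRNT is next, they were 6 and 8 bases. Listed clusters of the 2 strands were therefore closer together at TRNP than at ND6 and TRNY.

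Over the mitochondrial genome the plus strand carried 223 clusters in replicate 1 and 162 in replicate 2, with median log2 folds of 1.03 and 1.36. Of these, 5.38% and 13.0% were enriched. The lowest minus-strand log2 fold of replicate 1, 3.33 in TRNP, was above that plus-strand median, whereas the lowest of replicate 2, 0.64 in TRNC, was below it. In replicate 1, 12 of the 13 minus-strand clusters were at the p limit. Of the 110 clusters of replicate 1 at that limit with a log2 fold of at least 3, 12 were on the mitochondrial minus strand and 5 on the plus strand. In replicate 2 the numbers were 9 and 19 of 123. The highest mitochondrial fold of replicate 1 was on the plus strand, at 6.94, so high single values were not particular to the minus strand. Plus-strand clusters include the ribosomal RNA genes RNR1 and RNR2, with 0 of 30 and 0 of 59 enriched in replicate 1. In replicate 2 these had 0 of 20 and 0 of 53. In replicate 1 every cluster of the heavy-strand tRNA genes TRNF, TRNR, TRNT, TRNI and TRNH was enriched, against 1.39% of all clusters. In replicate 2 only those of TRNF and TRNR were, against 12.8%. TRNL1 and TRNL2 held no enriched cluster.

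**Figure D4:**
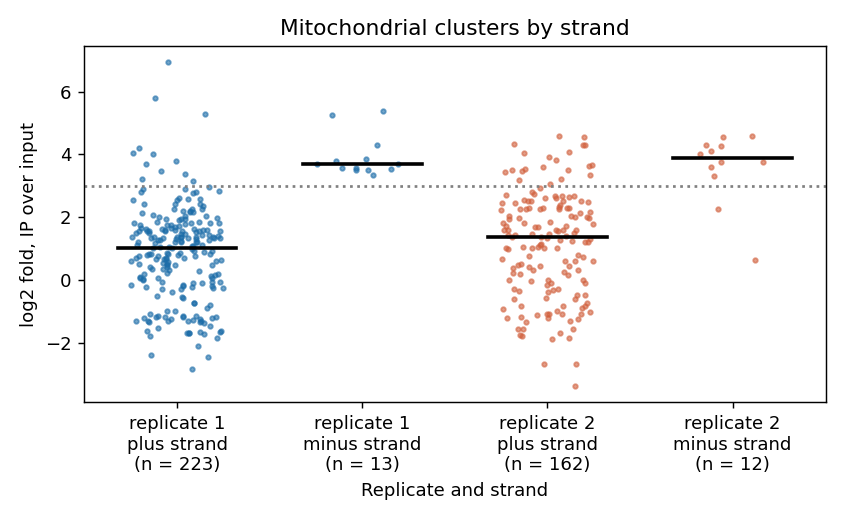
The log2 fold of IP over input (vertical axis) of every mitochondrial cluster, by replicate and strand, with 1 point per cluster, a bar at the median and a dotted line at log2 3. The 13 minus-strand clusters of replicate 1 all lie above the line, 2 of the 12 of replicate 2 lie below it, and plus-strand points are spread on both sides in both replicates.

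ND6 was set beside the other mitochondrial subunits of complex I, which are all on the heavy strand. ND1, ND2, ND3, ND4, ND4L and ND5 together held 64 clusters in replicate 1, of which 1 was enriched, and 42 in replicate 2, of which 6 were enriched, against the same 1.39% and 12.8% of all clusters. ND1 held 1 of 11 enriched clusters in replicate 1 and 5 of 9 in replicate 2, and 2 reproducible peaks. Its median log2 fold was 2.12 and 3.42, nearest to ND6 among the 6. ND4 was lowest, with −0.21 and 0.30. The highest cluster of any of the 6 had log2 fold 3.14 in replicate 1, in ND1, which is below the lowest ND6 cluster of that replicate. In replicate 2 it was 3.62, also in ND1, just above the lowest ND6 cluster at 3.60.

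ND5 and CYTB flank ND6 on the heavy strand, and COX1 follows TRNY. ND5 had a median log2 fold of 1.27 in replicate 1 and 1.84 in replicate 2, with 0 of 14 and 1 of 7 clusters enriched. CYTB, the cytochrome b subunit of complex III, had 1 of 8 and 3 of 6, and COX1, the catalytic subunit of cytochrome oxidase, 1 of 19 and 6 of 9. No reproducible peak lay in ND5, while CYTB held 1 and COX1 held 4. Together these were 2 of 41 clusters in replicate 1 and 10 of 22 in replicate 2, against 1.39% and 12.8% of all clusters.

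The nuclear transcripts of mitochondrial RNA decay and maturation factors, 18 genes, held no reproducible peak. In replicate 1, 7 of their 737 clusters were enriched, in SUPV3L1, LRPPRC and TFAM, and in replicate 2, 45 of 272 were, in 10 genes. These shares are near the 1.39% and 12.8% of all clusters and show nothing particular to the list. SUPV3L1, which encodes the SUV3 helicase, had 1 of 50 clusters enriched in replicate 1 and 2 of 18 in replicate 2. Its highest log2 folds were 4.15 and 4.08, with medians of −0.04 and 1.65. PNPT1, which encodes polynucleotide phosphorylase, had no enriched cluster in replicate 1 and 7 of 33 in replicate 2. Nuclear clusters were assigned by gene span on either strand, so these counts can include other transcripts.

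Among 6976 genes with at least 5 clusters in each replicate, ND6 included, the pair of median log2 folds closest to that of ND6 was found in LCN2, which encodes the secreted protein lipocalin 2. Its medians were 3.59 and 3.85 in replicates 1 and 2, a distance of 0.26 from ND6 on the log2 scale. DDT, D-dopachrome tautomerase, came next with 3.72 and 4.59. It was followed by DDTL, LOC124905567 and PSD4, at distances of 0.73 to 0.86. The DDT and DDTL values are not independent where their spans share clusters. Likeness was measured on fold alone, over the 2 replicates only. The reads behind the clusters of the other genes were not compared with those of ND6, so a like fold may rest on far fewer reads. Nuclear genes were given clusters on either strand and ND6 only those of its own strand, so the measures are not fully alike. The LCN2 medians rest on 7 clusters in replicate 1 and 5 in replicate 2.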

How the data were processed

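The tools named are cutadapt 1.9 and STAR 2.4.0i, per the submitters' processing notes. Neither the peak caller nor the rule that combines the replicates is given in the sources used here. The authors deposited log2 fold values of IP over input and −log10 p-values per cluster, of which 400 was the highest, here called the limit. Minus-strand mitochondrial rows were selected and placed in RefSeq gene spans of GRCh38.p14 by midpoint, with positions counted from 1 (Python 3.11.15, pandas 2.3.3, SciPy 1.17.1).

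Read ratios were recovered with the most frequent fold set to 3 IP reads per input read, within 1e-12 on the log2 scale and with denominators up to 5000. A Yates-corrected chi-square value from these reads matched the deposited p within 0.1% for 591 of 592 clusters in replicate 1 and 537 of 537 in replicate 2, with denominators of at least 20 and p below the limit. Taking 1, 2, 4, 5 or 6 reads instead matched at most 1 cluster. Where p was at its limit, the reads are minimums. Exact Clopper-Pearson 95% intervals cover counting error only and treat the depth ratio as fixed. At minimum reads they are at their widest.

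For the 777 and 928 reproducible peaks identical to a cluster of replicate 1 or 2 alone, subtracting that fold from the doubled combined fold gave a whole-read ratio of the other replicate in all cases, and in 0 on a scale shifted by 0.01. The combined p was the lower of both in 9 of 9 peaks identical to a cluster in each replicate. The read recovery was tested on simulated reads.

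Every gene with a minus-strand mitochondrial cluster was named, with the light-strand genes, their neighbours, the complex I genes, the RNA decay list and the 5 genes nearest in median fold. Members and lists were chosen with earlier results of these data known. Mitochondrial sequence was not used here, and 1 erythroid marker is not reported here.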

Additional observations from a re-analysis of the deposited data

Results flagged for a closer look

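A copy of part of the mitochondrial genome lies on chromosome 1 between 629062 and 634922 and holds 7 annotated pseudogenes in mitochondrial order, from MTND1P23 to MTCO3P12. On its minus strand, the light-strand orientation if the order of the genes gives the direction, 2 reproducible peaks were listed, and none on its plus strand. They lie outside the mitochondrial chromosome and so outside the comparisons above. The peak in MTND2P28, at 629904 to 629997, had a combined log2 fold of 4.90 and a −log10 p of 7.84. The peak in MTATP6P1, at 633969 to 634085, had a combined log2 fold of 3.64 and a −log10 p of 34.0. In its own clusters MTATP6P1 had 2.71 in replicate 1 and 4.57 in replicate 2, and MTND2P28 had 3.34 and 6.47. The enriched clusters of this strand numbered 2 of 12 in replicate 1 and 3 of 5 in replicate 2, against 0 of 12 and 3 of 7 on the plus strand. Of all clusters, 1.39% were enriched in replicate 1 and 12.8% in replicate 2. The mitochondrial genes ND2 and ATP6 held no minus-strand cluster. Whether the reads came from the nuclear copy or from mitochondrial RNA was not tested.

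The 36 annotated ND6 pseudogenes of the nuclear genome held 8 clusters in replicate 1, of which 0 were enriched, and 5 in replicate 2, of which 2 were enriched, against the same 1.39% and 12.8% of all clusters. These were in MTND6P22, at log2 fold 4.66, and MTND6P4, at 3.31, and no reproducible peak lay in any of the 36. These genes were named after their values were seen.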

How the results depend on the processing

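With a log2 fold threshold of 4, 3 of the 13 enriched minus-strand clusters of replicate 1 and 5 of the 10 of replicate 2 were left, so the counts depend on the threshold for most ND6 clusters. Merging touching clusters gave 5 enriched sites in replicate 1, 3 in replicate 2 and 3 reproducible sites, since touching clusters are counted once. A log2 fold threshold of 2 gave 13 and 11. A −log10 p threshold of 5 gave 13 and 10, which was fixed in advance because every enriched minus-strand cluster lay far above it. All 9 reproducible peaks overlapped an enriched cluster of replicate 1 and also an enriched cluster of replicate 2. The list combines both replicates, and every ND6 and TRNY cluster was enriched in each. This number thus follows from the results above and does not test the loss of a replicate. Weighting ND6 clusters by length gave medians of 3.70 and 4.27, and assignment by any overlapping base changed neither the medians nor the 19 ND6 clusters. No paired analysis was possible because no test gave these counts or medians. Each fold already sets an IP library against the input of its number, and the folds of both pairs on identical intervals are given as values. Depth limits the tRNA values, where the smallest input number, in TRNY of replicate 1, is a minimum of 13 reads.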
